A study of Mus musculus with 6 samples.

Results

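The genes described here encode the nuclear subunits of the 5 complexes of mitochondrial oxidative phosphorylation. They were taken by symbol from the 41214 genes counted: every symbol beginning Nduf or Uqcr, the 4 Sdh subunits, those beginning Cox4 to Cox8 and those beginning Atp5, without Ndufaf assembly factors and symbols with "-ps". The rule found 89 genes, of which 41 were assigned to complex I, 4 to complex II, 8 to complex III, 19 to complex IV and 17 to complex V by symbol. Of these, 85 are annotated as protein coding and 4 as processed pseudogenes (Ndufa11b, Ndufb4c, Ndufs6b and Cox6c2). RNA was sequenced from explant cells of mouse mammary tumours, derived from the mammary epithelial line NMuMG and expressing the receptor tyrosine kinase ErbB2. Libraries carrying a control hairpin, labelled shCTL with genotype WT, were compared with libraries carrying a hairpin against CdGAP, labelled shCdGAP with genotype CdGAP KD, with 3 of each. CdGAP, the product of Arhgap31, is a GTPase-activating protein for Cdc42 and Rac1, and the study asks about its part in repression of E-cadherin. Nothing in the labels tells separate cultures from repeat libraries of a single culture. A p-value here is thus set against variation among 3 libraries per group that may be purely technical. The labels give neither the promoter nor the clonality of the ErbB2 or hairpin lines.

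Oxidative phosphorylation couples the oxidation of NADH and succinate to ATP synthesis in the inner mitochondrial membrane. Complex I (NADH dehydrogenase) and complex II (succinate dehydrogenase) pass electrons to ubiquinone, complex III (cytochrome bc1) passes them to cytochrome c, complex IV (cytochrome c oxidase) passes them to oxygen, and complex V (ATP synthase) uses the proton gradient that complexes I, III and IV build. Most subunits are encoded in the nucleus on many chromosomes and imported, while a few core subunits of complexes I, III, IV and V are encoded by mitochondrial DNA.

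Library totals ran from 19176540 to 26824249 counts. The hairpin target, Arhgap31, was at 13.2, 14.4 and 15.1 CPM (counts scaled to library size, scaled by TMM, edgeR's trimmed mean of M-values) in shCTL replicates 1 to 3 and at 1.70, 9.16 and 8.21 in shCdGAP, so every shCdGAP library was lower and replicate 1 by far the lowest. Its log2 fold change was −1.16 ± 0.55 (SE), with an edgeR quasi-likelihood adjusted p of 0.19. Of 8 mammary epithelial markers, Krt8 was at 2680 to 5370 CPM in the 6 libraries. Cdh1 (232 ± 51.5 to 768 ± 85.3 CPM, SD, n = 3 each) and Krt7 were called higher by edgeR and Krt5 and Epcam lower, Epcam with 0 counts in shCdGAP, while Krt14 reached at most 0.0728 CPM. The part of these marker changes in the results of the members was not tested. The marker lists of fibroblasts (1.55 to 4.69 CPM summed), lymphocytes (0.134 to 0.567), endothelium (0.136 to 2.33), adipocytes (0.68 to 4.85), skeletal muscle (0.0447 to 0.182) and red cells (0.0 to 0.182) were low in all libraries. Endothelial sums were 2.17 to 2.33 CPM in shCTL and 0.136 to 0.76 in shCdGAP, and adipocyte sums 4.36 to 4.85 and 0.68 to 1.51. Called lower by edgeR were Tek (−6.35, adjusted p = 0.00586), Fabp4 (−2.36, 0.0169) and Cidec (−1.64, 0.0381), each at most 3.13 CPM. Vwf (−1.89, edgeR adjusted p = 0.0692) and Pdgfra (−0.705, 0.299) were not called. Macrophage markers summed to 6.54 to 23.5 CPM. Cd68 was the largest of them in every library, at 15.4 to 21.7 CPM in shCTL and 2.93 to 10.9 in shCdGAP, and was not called (−1.45, edgeR adjusted p = 0.0709). Itgam was called higher by edgeR (0.213 ± 0.123 to 1.41 ± 0.236 CPM, SD, n = 3 each). Csf1r was not called (1.03, edgeR adjusted p = 0.206), and Adgre1, C1qa, C1qb and C1qc had 0 counts in every library. In bulk RNA, fewer cells of a type and less RNA per cell cannot be told apart.

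As a group the subunit genes stayed close to their control level, and each of the 5 complexes had 1 to 7 members called. Of the 89 genes, 80 passed the filter on low counts and were tested. A gene was called at a Benjamini-Hochberg adjusted p under 0.05 over all 13483 tested genes, and fold changes are shCdGAP over shCTL. Called higher were 10 members, 12.5% of those tested, against 10.4% of all tested genes: Ndufa7, Ndufv2, Ndufv1, Ndufa4, Ndufs6 and Ndufb2 of complex I, Sdha of complex II, Uqcrb of complex III, Cox7c of complex IV and Atp5g2 of complex V. Called lower were 5 members, 6.25%, against 11.4% of all tested genes: Ndufb5 of complex I, Uqcr11 of complex III, and Atp5j, Atp5o and Atp5d of complex V. The share called higher was therefore near the background and the share called lower below it, with no test of either difference. All 80 tested members lay within 2-fold of shCTL, as did 84.2% of all tested genes and 92.2% of the 9321 tested genes with a mean of at least 10 CPM. All 3 shCdGAP libraries lay above all 3 shCTL libraries for 28 members (21.7% of all tested genes did so) and below them for 19 (22.4% of all tested genes). The groups overlapped for the other 33.

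**Figure D1:**
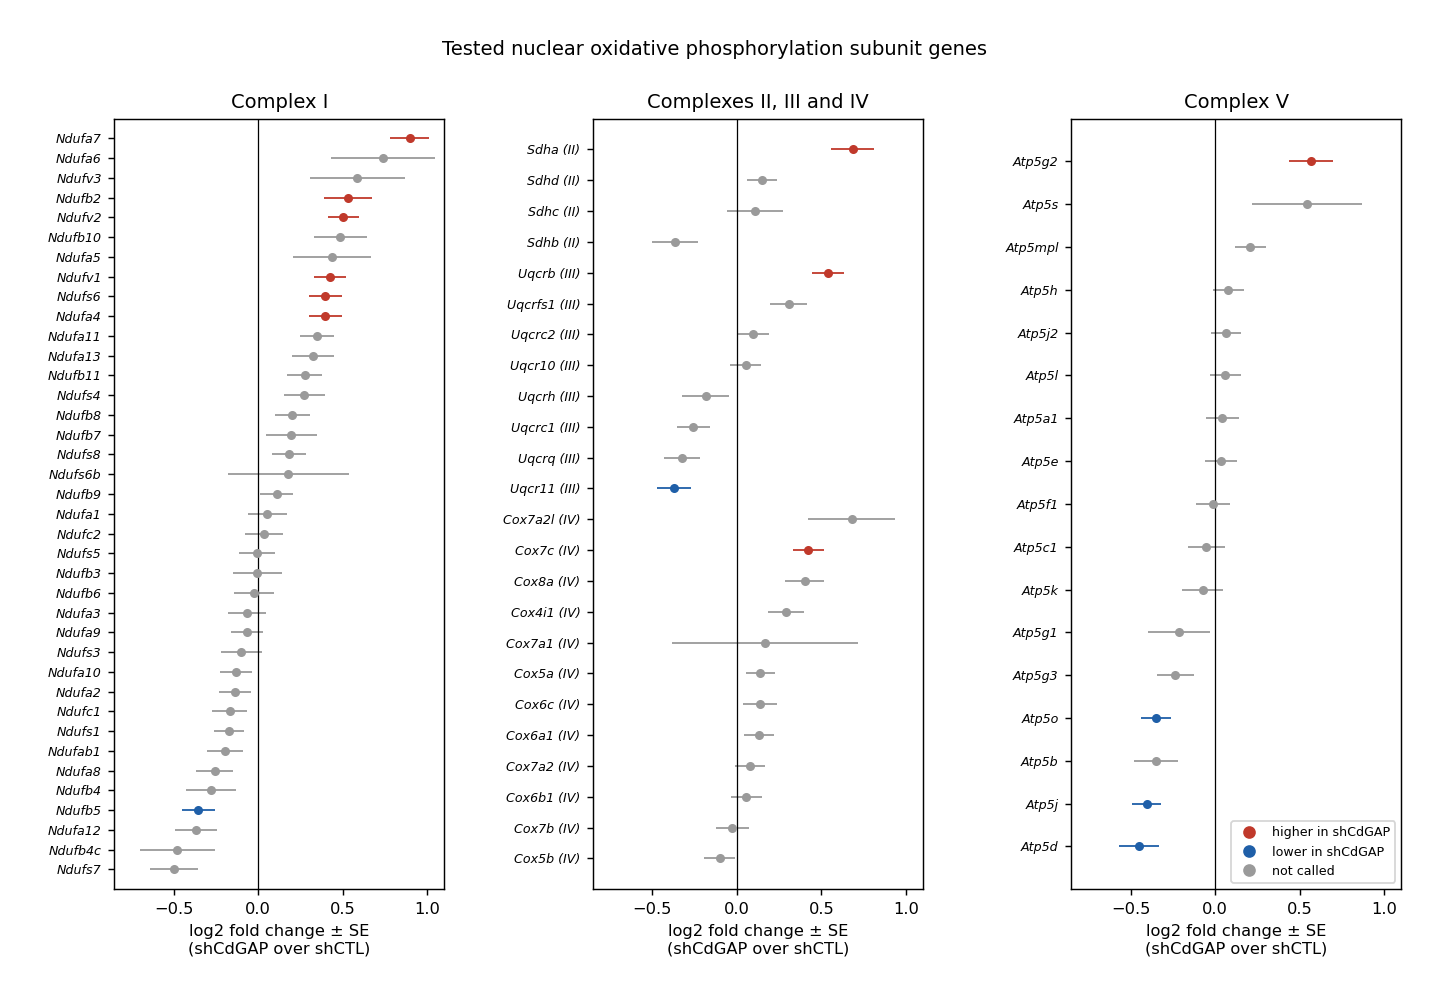
Log2 fold change (shCdGAP over shCTL, x axis) of 79 of the 80 tested subunit genes, each with its standard error as a horizontal bar, in 3 panels by complex and ordered by value within each complex. Red points were called higher (10) and blue points lower (5) in shCdGAP, and grey points were not called. Values run from −0.50 for Ndufs7 to 0.89 for Ndufa7, and complex IV has no member called lower.

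The medians of the complexes differed in sign. The median log2 fold change was 0.0527 over the 39 tested members of complex I, 0.128 over the 4 of complex II, −0.0662 over the 8 of complex III, 0.139 over the 12 of complex IV and −0.0155 over the 17 of complex V. Over all 80 members it was 0.0589, beside 0.0104 over all tested genes. With a library left out, the complex V median ran from −0.0403 to 0.0234 and was above 0 without shCdGAP replicate 1 (0.0234) or 2 (0.0184), so its sign rests on those libraries. The complex III median ran from −0.103 to −0.00162, nearest 0 without shCdGAP replicate 2, and the complex II median from 0.0416 (without shCdGAP replicate 1) to 0.194. The log2 fold changes of the members themselves had a standard deviation of 0.317. Each shCdGAP library was set against the shCTL mean on the log2 scale, and the member medians were then 0.0913, 0.0138 and 0.0563 in replicates 1 to 3. Scaled by total counts alone, the complex I median was −0.00605 and the all-member median 0.000801.

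The calls depended on which libraries entered the fit. Without shCdGAP replicate 1, the library with the least Arhgap31, 19 members were called higher and 8 lower, when 19.9% of all tested genes were called higher and 21.9% lower. With any other library left out, fewer of all tested genes were called than with all 6. Without shCTL replicate 1, 2 members were called higher (5.74% of all tested genes), and without shCTL replicate 2 or 3 only Ndufa7 was (3.95% and 4.13%). Without shCdGAP replicate 2 or 3, 6 members were called higher (5.95% and 8.96%). No member was called lower by edgeR without any single shCTL library or without shCdGAP replicate 2 (7, 7, 7 and 6 members had an unadjusted p under 0.05). Of all tested genes, 7.65%, 6.28%, 6.55% and 6.94% were called lower in these 4 fits. Atp5j was the 1 member called lower without shCdGAP replicate 3, against 9.19% of all tested genes. Ndufa7 was called in all 6 fits that left out a library, Sdha in 4, and the other 13 called members in 1 to 3. With the replicate number as a block, 8 members were called higher and 2 lower (9.47% and 10.9% of all tested genes). DESeq2 called 13 higher and 6 lower (14% and 14.5% of all tested genes).

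Complex I had 6 members called higher and 1 called lower. Ndufa7, an accessory subunit, was at 62.9, 55.6 and 59.8 CPM in shCTL replicates 1 to 3 and at 124, 102 and 105 CPM in shCdGAP, the highest log2 fold change of the 80 tested members. The lowest shCdGAP library lay well above the highest shCTL library. Its log2 fold change was 0.89 ± 0.118 (SE; edgeR adjusted p = 0.00351). Ndufv2 and Ndufv1 encode the core subunits of the flavoprotein arm, where NADH is oxidised. Ndufv2 was at 74.1, 78.1 and 75.4 CPM in shCTL and at 108, 102 and 112 in shCdGAP (log2 fold change 0.50 ± 0.0916, edgeR adjusted p = 0.0112). Ndufv1 was at 112, 114 and 118 CPM in shCTL and at 161, 143 and 157 in shCdGAP (0.42 ± 0.0951, edgeR adjusted p = 0.0232). Both groups were tight and apart for these genes. The third flavoprotein subunit gene, Ndufv3, behaved otherwise: it was at 84.8 CPM in shCdGAP replicate 1, but at 47.8 and 40.0 in replicates 2 and 3, beside 37.1 to 39.7 in shCTL, and was not called (adjusted p = 0.195).

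Other members of complex I that were called higher changed by less than Ndufa7, and several calls were near the threshold. Ndufa4, whose product is now placed in complex IV, was at 152, 149 and 147 CPM in shCTL and at 191, 185 and 212 in shCdGAP (0.40 ± 0.0963, edgeR adjusted p = 0.0305). Ndufs6, a zinc-binding accessory subunit, had a log2 fold change of 0.40 (adjusted p = 0.0339), and Ndufb2, of the membrane arm, 0.53 (adjusted p = 0.0398). Ndufb5, another membrane arm subunit, was the 1 member of complex I called lower, at 80.1, 84.7 and 84.4 CPM in shCTL and 65.9, 60.7 and 68.3 in shCdGAP (−0.35 ± 0.0966, edgeR adjusted p = 0.0441). None of these 4 genes had overlapping groups. With the replicate number as a block, none of the 4 was called (edgeR adjusted p = 0.0586 for Ndufa4, 0.0659 for Ndufs6, 0.0663 for Ndufb2 and 0.0723 for Ndufb5), while Ndufb10 was (0.0422, beside 0.0733 without the block). Ndufs7, a core iron-sulphur subunit, had the lowest log2 fold change of the 80 tested members, −0.50, and lay just outside the threshold (adjusted p = 0.0503), as did Ndufa11 (0.35, adjusted p = 0.0515). Ndufs1 (−0.17), Ndufs3 (−0.10) and Ndufs8 (0.18), which also encode core subunits of the matrix arm, were not called. The most abundant members of complex I per kilobase of exon, with Ndufa4 at 350.6 CPM per kilobase and Ndufb9 at 217, were a called gene and a gene that did not pass (0.11, adjusted p = 0.476).

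In complex II the 4 subunit genes did not move together. Sdha, the flavoprotein that oxidises succinate, was at 187, 189.8 and 186 CPM in shCTL and at 352, 279.8 and 272 in shCdGAP (0.69 ± 0.126, edgeR adjusted p = 0.0115). Its shCTL values were nearly equal and all shCdGAP values were higher, replicate 1 most. Sdhb, the iron-sulphur subunit, had values of 122, 129 and 134 CPM in shCTL and 84.4, 100.3 and 114 in shCdGAP (−0.37 ± 0.134, adjusted p = 0.104). Those groups did not overlap, but the shCdGAP libraries were spread widely, and the gene was not called. The membrane anchors Sdhc (0.11, adjusted p = 0.70) and Sdhd (0.15, adjusted p = 0.29) were not called, and Sdhd held the highest level per kilobase of the complex at 141 CPM.

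Complex III had 1 member in each direction. Uqcrb, a small subunit near the quinone site, was at 45.5, 46.6 and 49.3 CPM in shCTL and at 65.9, 69.2 and 70.5 in shCdGAP (0.54 ± 0.0961, edgeR adjusted p = 0.0103). Uqcr11, the smallest accessory subunit, was at 109.7, 112 and 110.4 CPM in shCTL and at 77.8, 86.0 and 92.9 in shCdGAP (−0.37 ± 0.102, edgeR adjusted p = 0.0452; 0.0663 with the replicate block). Neither gene had overlapping groups. Uqcr10, a small accessory subunit with the highest level per kilobase of the complex at 174 CPM, was at 100.9, 96.3 and 101.5 CPM in shCTL and at 110, 97.9 and 101.7 in shCdGAP, with overlapping groups (0.05, adjusted p = 0.747). The Rieske iron-sulphur protein gene Uqcrfs1 (0.31, adjusted p = 0.10) and the core protein genes Uqcrc1 (−0.26, adjusted p = 0.114) and Uqcrc2 (0.10, adjusted p = 0.497) were not called. Cytochrome c1, which also belongs to complex III but lies outside the symbol rule, is encoded by Cyc1, which had 280, 277 and 282 CPM in shCTL and 187, 245 and 281 in shCdGAP (adjusted p = 0.343).

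In complex IV as assigned by symbol, 10 of 12 tested members had a log2 fold change above 0, but only Cox7c passed the test. Ndufa4, called higher, is counted with complex I by its symbol. Cox7c was at 76.2, 74.9 and 80.3 CPM in shCTL and at 109, 99.8 and 101 in shCdGAP, with no overlap (0.42 ± 0.0928, edgeR adjusted p = 0.0217). Cox8a, with the highest level per kilobase of all members at 481 CPM, lay at 241, 198 and 239 CPM in shCTL and 280.3, 307 and 309 in shCdGAP (0.40 ± 0.115, adjusted p = 0.0514). DESeq2 called it (adjusted p = 0.0241), and so did edgeR without shCdGAP replicate 1 (0.00875). Cox6b1, the next most abundant of the complex at 368 CPM per kilobase, had a log2 fold change of 0.06 (adjusted p = 0.706), and this was −0.00113 under total-count scaling. Cox5a, Cox5b, Cox6a1, Cox6c, Cox7a2 and Cox7b had log2 fold changes between −0.10 and 0.14 and were not called.

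Several complex IV subunits exist as a widely expressed copy and a copy restricted to muscle, lung or testis. Here the widely expressed copies were far more abundant than the restricted ones, of which Cox7a1 alone passed the filter on low counts. Cox4i1 was at 285, 272 and 283 CPM in shCTL and 336, 314 and 377 in shCdGAP (0.29, adjusted p = 0.0979), and edgeR called it only without shCdGAP replicate 1 (adjusted p = 0.0329) or without both libraries numbered 1 (0.00853). Its paralogue Cox4i2 had 5 counts in all shCTL libraries and 2 in all shCdGAP libraries. Cox6a2, the copy of heart and skeletal muscle, had 23 counts in shCTL and 2 in shCdGAP (exact conditional ratio 10.9, 95% interval 2.69 to 95.4 for counting error only). It failed the filter on low counts, and edgeR called it lower with no filter. Cox7b2 had 14 counts against 1 (ratio 13.3, interval 2.02 to 561). Cox6b2 had 1 count against 3 and Cox6c2 1 against 2. Cox8b, Cox8c and Ndufa4l2 had 0 counts in every library, where 3 counts would stand for 0.109 to 0.155 CPM. Cox7a1 was tested at 0.473 to 0.774 CPM in shCTL and 0.278 to 1.21 in shCdGAP (0.17, adjusted p = 0.867), and fell on the other side of 0 without shCdGAP replicate 1 (−0.53). The remaining untested member, Ndufa11b, had 3 counts against 4.

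Complex V had 3 members called lower and 1 higher. Atp5j and Atp5o encode coupling factor 6 and the oligomycin sensitivity protein, both of the peripheral stalk, and Atp5d encodes the delta subunit of the central stalk. Atp5j was at 140.3, 146 and 143 CPM in shCTL and at 109, 105 and 109.7 in shCdGAP (−0.41 ± 0.0857, edgeR adjusted p = 0.0191). Atp5o was at 149, 152 and 158 CPM in shCTL and at 124, 117 and 119 in shCdGAP (−0.35 ± 0.0885, edgeR adjusted p = 0.0354; 0.0682 with the replicate block). Atp5d was at 284, 235 and 256 CPM in shCTL and at 207, 179 and 180 in shCdGAP (−0.45 ± 0.117, edgeR adjusted p = 0.0378). No shCdGAP library of these 3 genes reached the lowest shCTL library. The catalytic beta subunit gene Atp5b, the most abundant member at 2343, 2206 and 2252 CPM in shCTL, was at 1533, 1787 and 2010 in shCdGAP. Its groups did not overlap either, but its shCdGAP libraries were spread widely and it was not called (−0.35 ± 0.13, adjusted p = 0.107). The alpha subunit gene Atp5a1 was at 950.1, 915 and 918 CPM in shCTL and at 914, 927 and 1023 in shCdGAP, with overlapping groups (0.04, adjusted p = 0.805).

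The membrane ring of ATP synthase is built from subunit c, which 3 genes encode as the same mature protein. Of these, Atp5g2 was called higher, at 79.6, 69.2 and 76.4 CPM in shCTL and 127, 98.9 and 107 in shCdGAP with no overlap (0.57 ± 0.128, edgeR adjusted p = 0.024). Atp5g1 (79.3, 90.9 and 93.7 CPM against 56.8, 82.5 and 88.5) and Atp5g3 (399, 419 and 449 CPM against 325, 359.8 and 391) had log2 fold changes of −0.21 and −0.24 and were not called (adjusted p = 0.467 and 0.185). Per kilobase, Atp5g3 was the highest of the 3 at 179 CPM, with Atp5g2 at 55.6 and Atp5g1 at 16.7.

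**Figure D2:**
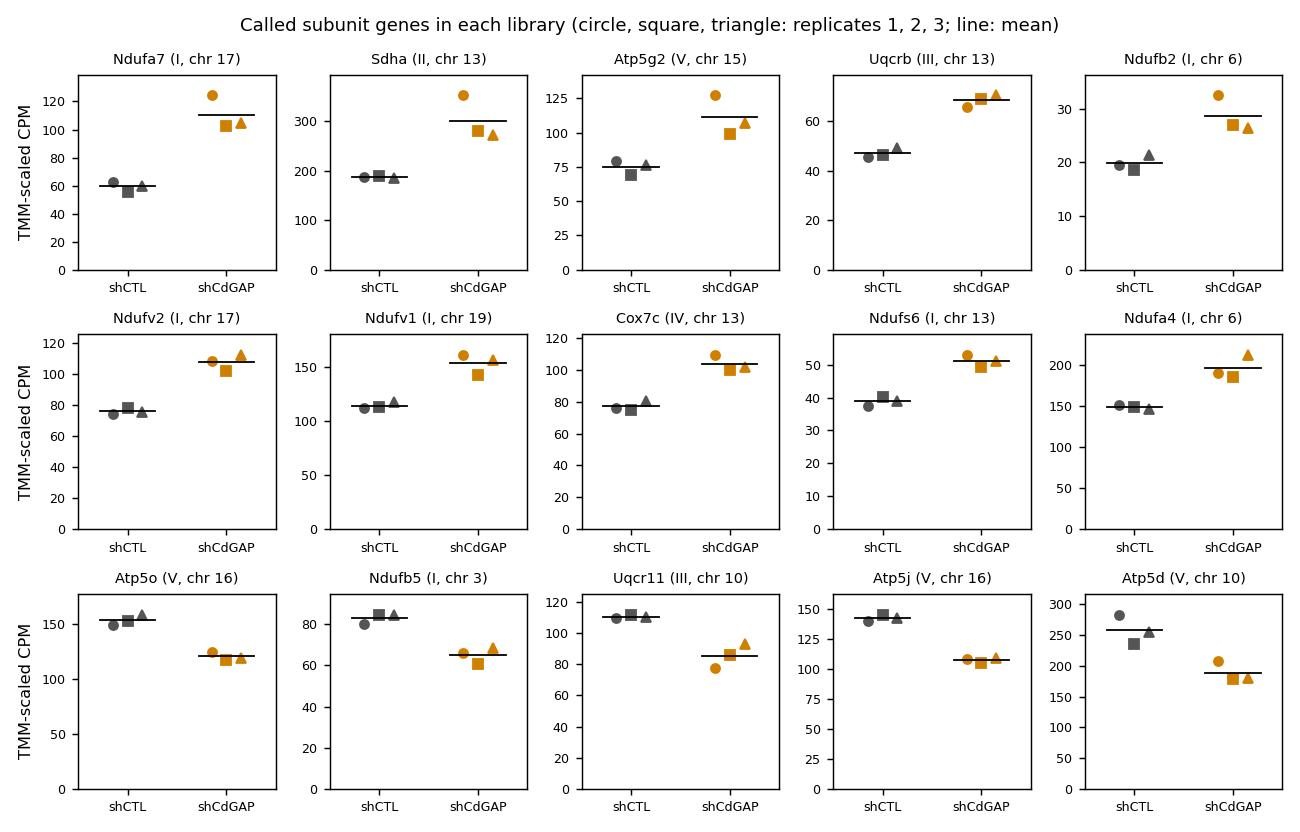
TMM-scaled CPM (y axis, from 0) of each of the 15 called members in the 3 shCTL (grey) and 3 shCdGAP (orange) libraries. Circles, squares and triangles are replicates 1, 2 and 3, and black lines are group means. In each panel the groups do not overlap, and shCdGAP replicate 1 is the highest point for Ndufa7, Sdha, Atp5g2, Ndufb2, Ndufv1, Cox7c and Ndufs6.

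Summed over all members of a complex, the totals followed the abundant genes. Complex I summed to 2726, 2759 and 2793 CPM in shCTL and to 3142, 2828 and 2967 in shCdGAP (means 2760 ± 33.5 and 2979 ± 157, SD, n = 3 each). Complex IV went from 1735 ± 50.5 to 2017 ± 109.5 CPM and complex II from 617 ± 0.562 to 731 ± 63.5 CPM (SD, n = 3 each). In all 3 the shCdGAP libraries lay above the shCTL libraries. Complex V summed to 5502, 5299 and 5436 CPM in shCTL and to 4497, 4700 and 5152 in shCdGAP, with every shCdGAP library lower, and Atp5b alone accounts for more of that sum than any other member. Complex III (1104 ± 11.6 against 1071 ± 44.6 CPM) overlapped, and so did all members together (11630 ± 159 against 11580 ± 419.8 CPM). An exact permutation test of 3 libraries against 3 cannot give a two-sided p below 0.10, so no test was made on these sums.

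**Figure D3:**
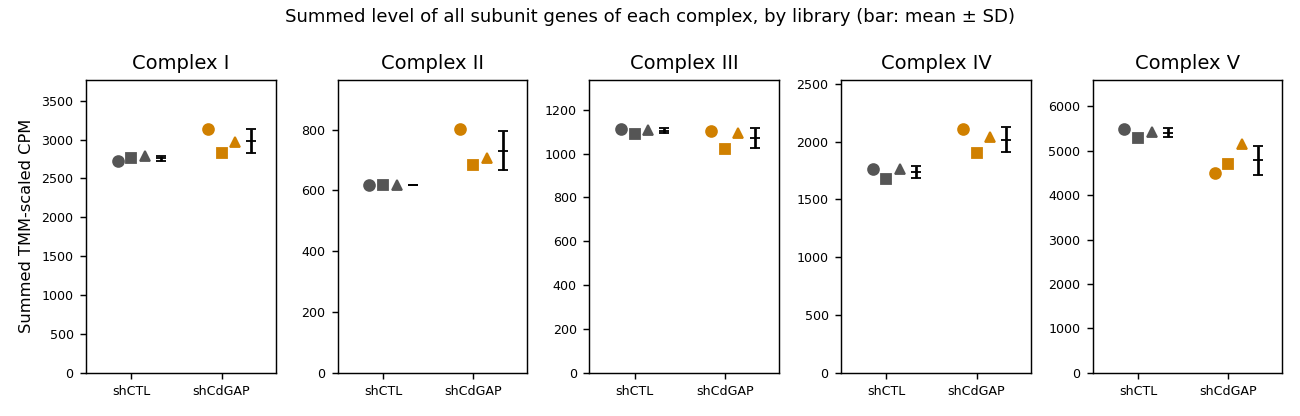
Summed TMM-scaled CPM of the subunit genes of each complex (y axes from 0, with a scale of its own in each panel) in the 3 shCTL (grey) and 3 shCdGAP (orange) libraries. The horizontal tick with its vertical bar beside each group is the mean ± SD. Complexes I, II and IV have every shCdGAP library above shCTL, complex V has every one below, and the complex III groups overlap.

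The members on some chromosomes lay all on the same side of 0, whatever complex they belong to. The pattern was noticed in these values, and it is a description with no test. The chromosome medians of the tested genes that are not members lay above 0.2 (log2) on chromosomes 8, 13, 17 and 19, from 0.265 to 0.381, and below −0.2 on chromosomes 10 and 16, at −0.213 and −0.276. All 19 tested members on chromosomes 8, 13, 17 and 19 had a log2 fold change above 0 and 7 were called higher. Of the other genes tested there, 20.2%, 20.6%, 25.1% and 22.6% were called higher on chromosomes 8, 13, 17 and 19. All 8 members on chromosomes 10 and 16 had one below 0 and 4 were called lower, as were 18.1% and 18.8% of the other genes tested on chromosomes 10 and 16. On the other 14 chromosomes, members split into 27 above 0 and 26 below, with 3 called higher (Ndufa4 and Ndufb2 on chromosome 6, Atp5g2 on chromosome 15) and 1 lower (Ndufb5 on chromosome 3). Some of these chromosomes were one-sided too. All 4 members on chromosome 4 (median of the other genes −0.146) and all 3 on chromosome 3 (0.019) lay below 0. The 2 members on chromosome 12 (0.00902) lay above 0. Over the 80 members, Pearson's r between a member's value and its chromosome's median was 0.758 (Spearman's rho 0.741). Members of 1 chromosome share that median and all values share the 6 libraries, so no p is given. Against the median of other genes starting within 5 Mb the r was 0.709. In shCdGAP replicates 1, 2 and 3 taken singly the r with the chromosome median was 0.608, 0.758 and 0.69.

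**Figure D4:**
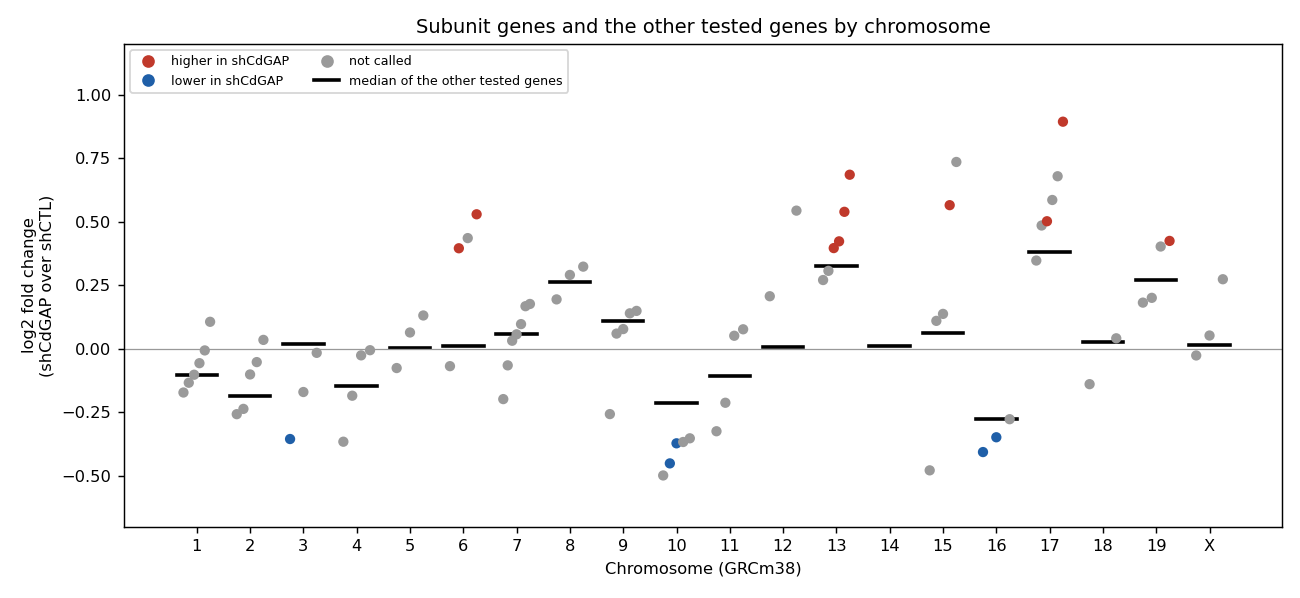
Log2 fold change (shCdGAP over shCTL, y axis) of each tested subunit gene as a point above its chromosome (x axis), red if called higher, blue if called lower and grey if not called. Black bars are the medians of the other tested genes on that chromosome. All points on chromosomes 8, 13, 17 and 19 lie above 0 and all on 10 and 16 lie below, on the same side as the black bars.

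The complexes draw on these chromosomes unequally. Complex V had no tested member on chromosomes 8, 13, 17 and 19 but 4 on chromosomes 10 and 16, namely Atp5b, Atp5d, Atp5j and Atp5o, which had its 4 lowest values. Its 13 other members had a median of 0.0418. Complex IV had the reverse, with Cox4i1, Cox7a2l, Cox7c and Cox8a on chromosomes 8, 13, 17 and 19, none on chromosomes 10 and 16, and a median of 0.105 over the remaining 8. Complex I had 12 members on the first set, with a median of 0.372, and 3 on the second, Ndufa12, Ndufb4 and Ndufs7, with a median of −0.366. Its 24 others had a median of −0.0407. Sdha lies on chromosome 13, and Sdhb, Sdhc and Sdhd do not lie on any of the 6. Uqcrb and Uqcrfs1 of complex III lie on chromosome 13, and Uqcr11 lies on chromosome 10.

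The fit was repeated with each library's median deviation on each chromosome as an offset, an alternative chosen after seeing the data. Then 4 members were called higher (Atp5g2, Ndufa4, Ndufa7 and Ndufb2), against 8.71% of all tested genes, and Ndufb5 alone was called lower, against 10% of all tested genes. Ndufa7 kept a log2 fold change of 0.53 (edgeR adjusted p = 0.0279) and Atp5g2 one of 0.54 (0.0239). Sdha went to 0.36 (0.0641), Uqcrb to 0.22 (0.212), Ndufv2 to 0.13 (0.385), Cox7c to 0.10 (0.503), Atp5j to −0.15 (0.307) and Atp5d to −0.24 (0.173). The standard deviation among the 80 values went from 0.317 to 0.215. With the replicate block added, only Atp5g2 and Ndufa7 were called higher and no member was called lower (2 had an unadjusted p under 0.05), against 7.48% and 9.28% of all tested genes. Without shCdGAP replicate 1, the same offset gave 8 higher, Sdha and Uqcrb among them, and 4 lower, against 16.9% and 19.7% of all tested genes. Regulation of the genes and a different DNA copy number of these chromosomes in the lines cannot be told apart by RNA counts, and copy number was not tested.

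Some members share a start region with a neighbour, and in the 5 such pairs with a called member the partner lay on the same side of 0. No such share was taken for called genes among all pairs. Of the tested genes, 22 pairs with a member had starts within 1000 bases of each other on opposite strands, and 16 of these (72.7%) had the same sign, beside 62.2% of all 1144 such pairs. These pairs were looked for after the values were seen and the 2 shares were not compared by a test. Both genes were called higher in 2 pairs with a member and lower in 2, beside 30 and 17 of all 1144 pairs. Ndufa7, Sdha and Atp5j lie on chromosomes 17, 13 and 16, where the other genes had medians of the same sign (0.381, 0.326 and −0.276). The part of these chromosome medians in the shared sign was not tested. Ndufa7 and Rps28, a protein of the cytosolic ribosome, start 29 bases apart on chromosome 17. Rps28 was at 254, 201 and 216 CPM in shCTL and at 422, 319 and 339 in shCdGAP (0.69 ± 0.151, edgeR adjusted p = 0.0214), so both genes of the pair had groups that were apart. Sdha and Ccdc127 also start 29 bases apart, on chromosome 13 (Ccdc127 0.33, adjusted p = 0.0493). Ndufb5 and Mrpl47, a protein of the mitochondrial ribosome, start 157 bases apart on chromosome 3, and Mrpl47 was at 48.6, 52.1 and 56.5 CPM in shCTL and 24.7, 30.1 and 34.3 in shCdGAP (−0.82 ± 0.153, edgeR adjusted p = 0.0121). Atp5j and Gabpa, a transcription factor of the ETS family that binds many promoters of respiratory genes, start 700 bases apart on chromosome 16, and Gabpa was also lower (−0.33 ± 0.09, edgeR adjusted p = 0.0452). Ndufa4 and Phf14 start 363 bases apart on chromosome 6 (Phf14 0.53, adjusted p = 0.0603, not called). The counts were made by strand, so reads of these opposed genes were assigned apart. Not every pair had the same order of libraries: Ndufv3 was highest in shCdGAP replicate 1, while its partner Wdr4 was at 34.8, 51.4 and 59.2 CPM in shCdGAP replicates 1 to 3.

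The start regions of 4 of these called members and of Atp5g2, a called member on a chromosome whose median was near 0, are shown to place the neighbours and the motifs. They are RefSeq sequences of build GRCm38.p6, from 250 bases before to 50 after the start, 5′ to 3′ on the gene's strand, and capitals mark a motif match. The start here is that of a RefSeq window, not the annotated gene start used for the distances above. For Atp5j (base 84835625) and Atp5g2 (base 102672352) the annotated gene start lies outside the window. Ndufa7 and Atp5j had 2 windows each, of which the one with the most motif matches was taken, or the first if equal. Ndufa7 (ENSMUSG00000041881) is at chr17:33824322-33824621 on the plus strand and Sdha (ENSMUSG00000021577) at chr13:74350191-74350490 on the minus strand. Ndufb5 (ENSMUSG00000027673) is at chr3:32736813-32737112 on the plus strand, Atp5j (ENSMUSG00000022890) at chr16:84834927-84835226 and Atp5g2 (ENSMUSG00000062683) at chr15:102670998-102671297, both on the minus strand. The annotated start of Rps28 at base 33824562 lies inside the Ndufa7 window, and that of Ccdc127 at base 74350309 inside the Sdha window.
Ndufa7: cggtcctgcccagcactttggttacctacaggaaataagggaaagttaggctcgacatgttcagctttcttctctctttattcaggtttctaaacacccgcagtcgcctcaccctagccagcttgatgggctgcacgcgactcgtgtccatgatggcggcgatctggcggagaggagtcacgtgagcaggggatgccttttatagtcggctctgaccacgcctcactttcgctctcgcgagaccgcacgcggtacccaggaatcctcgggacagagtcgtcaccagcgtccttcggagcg
Sdha: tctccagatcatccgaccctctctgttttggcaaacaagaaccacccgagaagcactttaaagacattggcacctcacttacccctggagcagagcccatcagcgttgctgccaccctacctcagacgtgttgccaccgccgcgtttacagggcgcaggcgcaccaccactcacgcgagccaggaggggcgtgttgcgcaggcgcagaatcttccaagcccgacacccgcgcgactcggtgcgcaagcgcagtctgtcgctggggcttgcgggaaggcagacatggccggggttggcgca
Ndufb5: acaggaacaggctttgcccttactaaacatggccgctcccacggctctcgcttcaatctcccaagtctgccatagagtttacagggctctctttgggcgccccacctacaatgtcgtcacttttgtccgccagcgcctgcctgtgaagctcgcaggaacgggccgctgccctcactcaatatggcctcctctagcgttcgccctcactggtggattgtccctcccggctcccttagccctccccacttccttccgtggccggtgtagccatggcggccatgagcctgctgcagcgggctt
Atp5j: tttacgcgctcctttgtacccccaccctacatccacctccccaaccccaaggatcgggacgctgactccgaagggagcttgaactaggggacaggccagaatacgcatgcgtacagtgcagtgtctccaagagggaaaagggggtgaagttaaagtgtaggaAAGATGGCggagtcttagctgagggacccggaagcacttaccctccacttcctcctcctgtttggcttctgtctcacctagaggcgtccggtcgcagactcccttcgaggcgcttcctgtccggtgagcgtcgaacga
Atp5g2: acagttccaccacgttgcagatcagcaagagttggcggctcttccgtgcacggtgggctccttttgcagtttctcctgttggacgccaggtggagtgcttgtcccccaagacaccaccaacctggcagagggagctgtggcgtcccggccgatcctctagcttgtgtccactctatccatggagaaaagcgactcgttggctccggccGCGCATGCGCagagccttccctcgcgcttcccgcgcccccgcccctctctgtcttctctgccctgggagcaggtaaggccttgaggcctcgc

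The promoters were searched for 4 motifs known from respiratory gene promoters on both strands, in the 69 RefSeq windows that matched 64 members. The core of the site of nuclear respiratory factor 1, GCGCATGC, was in 14.5% of the member windows and in 2.71% of all 32851 windows of that length. The YY1 motif AAGATGGC was in 13.0% and 2.75%, the ETS motif CCGGAAGT bound by GABP in 7.25% and 3.89%, and the half-site of estrogen-related receptors, TCAAGGTC, in 4.35% and 1.05%. Among the called members, Atp5g2 held the nuclear respiratory factor 1 core on both strands, as overlapping matches beginning 42 and 40 bases before the start, and Uqcr11 held it together with the ETS motif. Ndufs6 and Atp5j held the YY1 motif, in Atp5j beginning 88 bases before the start. The 10 genes with the nuclear respiratory factor 1 core, which include Atp5k, Atp5l, Cox6a1 and Sdhb, had 1 member called higher and 1 lower. The 9 with the YY1 motif also had 1 in each direction. Of all 64 members with a window, 9 were called higher and 5 lower. None of the 4 was in the windows of Ndufa7, Sdha and Ndufb5, which says only that these letters are not there. The matches are letters in a window and not measured binding.

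For a few members shCdGAP replicate 1 lay well above the other shCdGAP libraries. Ndufa6, an accessory subunit of complex I, was at 62.3, 68.5 and 66.7 CPM in shCTL and at 169, 79.9 and 79.7 in shCdGAP (0.74 ± 0.308, adjusted p = 0.145). Cox7a2l, a factor that joins complexes III and IV into supercomplexes, was at 119, 109.6 and 109 CPM in shCTL and at 260, 138 and 142 in shCdGAP (0.68 ± 0.257, adjusted p = 0.114). Atp5s, which resembles coupling factors of ATP synthase but is not a structural subunit, was at 4.99 to 5.62 CPM in shCTL and at 11.9, 6.03 and 5.47 in shCdGAP. Replicate 1 stood apart from its replicates for all 3 genes, as it did for Ndufv3. The medians of the other genes starting within 5 Mb were −0.00148, 0.406, −0.233 and 0.325 in that library for Ndufa6, Cox7a2l, Atp5s and Ndufv3, beside deviations of 1.36, 1.21, 1.15 and 1.14 of the members themselves. Without shCdGAP replicate 1, Ndufa6 (0.29, edgeR adjusted p = 0.0249) and Cox7a2l (0.33, 0.0126) were called higher, and Ndufv3 (0.21, 0.151) and Atp5s (0.12, 0.593) were not. Ndufa5 and Ndufb10 showed the opposite, with replicate 1 lower than its replicates (Ndufa5 19.4, 31.0 and 33.4 CPM against 17.9 to 22.3 in shCTL), and both were called higher without it.

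Of 53 tested factors that assemble the complexes, 7 (13.2%) were called higher and 3 (5.66%) lower, beside 10.4% and 11.4% of all tested genes. None of 15 assembly factors of complex I was called by edgeR with all 6 libraries. Without shCdGAP replicate 1, a fit that called 19.9% of all tested genes higher, 1 of them was called higher. Of 4 for complex II, Sdhaf3 was called higher (0.66, adjusted p = 0.0385). Of 6 for complex III, Uqcc3 (0.74) and Uqcc2 (0.45) were called higher and Lyrm7, which inserts the Rieske protein, lower (−1.31, adjusted p = 0.0211). Of 22 tested for complex IV, Cox20 (0.72) and Cox14 (0.34) were called higher and Coa5 lower (−0.35). Of 6 for complex V, Tmem242 (0.65, adjusted p = 0.0113) and Fmc1 (0.86) were called higher and Atpaf1 lower (−0.63). None of 8 genes of electron carriers outside the rule was called by edgeR with all 6 libraries, among them Cycs, which encodes cytochrome c, at 132, 153 and 148 CPM in shCTL and 56.7, 147 and 167 in shCdGAP (2 of the 8 were called higher without shCdGAP replicate 1).

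Partners of the nuclear subunits elsewhere in the mitochondrion did not share 1 direction. The counts of calls stand beside 10.4% of all tested genes called higher and 11.4% lower. Of the 13 subunits encoded by mitochondrial DNA, 11 were tested and 8 were called higher, with a median log2 fold change of 0.829. Their sum went from 14800 to 15900 CPM in shCTL to 23200 to 32700 in shCdGAP, and mt-Nd5 from 1080 ± 94.2 to 2190 ± 246 CPM (SD, n = 3 each; edgeR adjusted p = 0.00318). The nuclear subunits beside them stayed at a median of 0.0589, and the difference between these lists was not tested. Of 17 regulators of mitochondrial gene expression and DNA, Ssbp1 was called higher, and Tfam, which packages and transcribes mitochondrial DNA, and Gabpa lower. Tfam was at 89.9, 95 and 93 CPM in shCTL and 45.7, 57.3 and 67.2 in shCdGAP, with no overlap (−0.71 ± 0.154, edgeR adjusted p = 0.0211). Of 16 tricarboxylic acid cycle enzymes, 3 were called lower and none higher by edgeR with all 6 libraries, among them Cs, the citrate synthase gene (699 ± 23.3 to 508 ± 16.2 CPM, SD, n = 3 each), and Idh3b (−0.70). Of 76 tested proteins of the mitochondrial ribosome, 3 were called higher and 5 lower, with a median of −0.183. Both shares lay below those of all tested genes. Mrpl39, on chromosome 16 (−0.81, adjusted p = 0.00247), and Mrpl10 (−0.47) were the lower calls of smallest adjusted p, and Mrpl23 (1.00) and Mrpl36 (0.41) the higher ones. With shCdGAP replicate 1 left out, 15 of this list were called higher and 9 lower, beside 19.9% and 21.9% of all tested genes. The list's median deviation from the shCTL mean was −0.28, −0.0774 and 0.0303 in shCdGAP replicates 1 to 3, so its sign differed among libraries. Of 81 cytosolic ribosomal proteins, 7 were called higher, a share near that of all tested genes, and none lower. Their median was 0.236, and Rps28 and Rpl36 (0.63) had the smallest adjusted p. The median deviation of the cytosolic list was 0.4, 0.0317 and 0.198 in shCdGAP replicates 1 to 3. Its sums overlapped, at 37600 to 46100 CPM in shCTL and 41600 to 53600 in shCdGAP.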

How the data were processed

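RNA-seq counts of 6 libraries were used, grouped by title into 3 shCTL and 3 shCdGAP. TRIZOL extracts of total RNA were purified on RNeasy columns, per the labels' protocols. The submitters' processing notes name build GRCm38, TopHat2 2.0.14, Trimmomatic 0.30, DESeq, CASAVA 1.8 and Cuffdiff 2.2.1. The authors deposited raw fragment counts per gene, made with featureCounts 1.4.6 and the Ensembl 77 annotation per the file headers, from pairs with both ends aligned and strand setting 2. The options in the header do not include counting of reads with several alignments, so members with near-identical pseudogene copies are uncertain, as are Rps28, Rpl36 and the mitochondrial genes. Atp5o carries an annotated span from 91684398 to 91931687 on chromosome 16, longer than other members.

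Symbols from GENCODE M21 matched 40254 of 41214 genes. The members and lists were chosen with earlier results of these data known. After TMM scaling and the filterByExpr filter (at least 10 counts, total of at least 15), edgeR 4.0.16 in R 4.3.3 ran the quasi-likelihood test of shCdGAP against shCTL without covariates. Single-gene adjusted p-values are from this fit unless another is named. Library totals of 19176540 to 26824249 counts make 1 count worth 0.0364 to 0.0516 CPM, and floors and ratio intervals cover counting error only. Alternatives were RLE and total-count scaling, DESeq2 1.42.0, other filters on low counts, a transcript length offset, a chromosome offset, the replicate block and leaving out libraries. Same-numbered libraries deviated together (correlations 0.355, 0.289 and 0.246 for replicates 1 to 3). However, shCTL 3 with shCdGAP 2 (0.254) and shCTL 2 with shCdGAP 3 (0.186) did so too. Replicate 1 of a group with replicate 2 or 3 of the other ran from −0.352 to −0.263. Deviations from a group's mean sum to 0 over its 3 libraries, so the negative values partly follow from the positive ones and are not separate evidence. With that limit the correlations set replicate 1 apart, but do not tell which of replicates 2 and 3 belong together. Pairing by number is not given by the labels nor settled by the data, so the block served as an alternative fit only. For 1 member, counted in all totals, no value of its own is reported here. The script was checked on simulated counts. Described in full were the members with the smallest adjusted p per complex and direction (up to 3 each), the 2 most abundant per kilobase per complex, and families with tissue-restricted copies. Of each other list, up to 2 genes per direction with the smallest adjusted p were named, or the 2 most abundant where none was called. Further genes were chosen after their values were seen, because of their function, their position or their spread among libraries.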

Additional observations from a re-analysis of the deposited data

How the results depend on the processing

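Under RLE scaling 10 members were called higher and 5 lower, beside 1419 and 1546 of all 13483 tested genes. Under a mean of at least 10 CPM the numbers were 10 and 6, beside 870 and 825 of 9325. With no filter on low counts they were 5 and 2, beside 1316 and 1636 of 22322, and with the replicate block 8 and 2. The length offset gave 8 and 7, beside 1408 and 1503 of 13483 tested genes. That offset with the block gave 7 and 3, beside 1300 and 1460. The block lost the calls of Ndufa4, Ndufb2, Ndufs6, Atp5o, Ndufb5 and Uqcr11 and changed that of no other member but Ndufb10. The chromosome offset, chosen after seeing the data, gave 4 and 1, with the block 2 and 0, and without shCdGAP replicate 1 8 and 4. Leaving out 1 library gave 1 to 19 higher and 0 to 8 lower, with the shares of all tested genes given above. Leaving out both libraries numbered 1 gave 24 and 14, where calls rose over all genes too, to 3475 and 3640 of 13625. The median over all members was 0.000801 under total-count scaling, 0.00699 with the length offset, 0.00332 with that offset and the block, and 0.0105 with the chromosome offset without shCdGAP replicate 1. For complex I these 4 were −0.00605, −0.0308, −0.0362 and −0.00203, and 0.0253 to 0.101 with a library left out. The complex IV median was 0.05 with the chromosome offset and block and 0.0412 with that offset without shCdGAP replicate 1. The complex V median was −0.0732 under total-count scaling, 0.0512 with the chromosome offset without shCdGAP replicate 1 and 0.0608 without both libraries numbered 1. Among the 27 members described by rule, signs turned only for members that were not called. Under total-count scaling, the length offset, and that offset with the block, Uqcr10 was −0.00675, −0.0328 and −0.0353 and Cox6b1 −0.00113, −0.0342 and −0.0340. Atp5a1 was −0.0160 under total-count scaling and −0.00843 to 0.0841 with a library left out, lowest without shCdGAP replicate 3. Cox7a1 was −0.0451 with the length offset and block, −0.00425 with the chromosome offset and block, −0.532 (without shCdGAP replicate 1) to 0.555 with a library left out, −0.554 with the chromosome offset without shCdGAP replicate 1, and −0.347 without both libraries numbered 1. With the chromosome offset without shCdGAP replicate 1, Cox7a2 was −0.0129, Cox7a2l −0.0647, Atp5g1 0.0732 and Atp5g3 0.0416. The cause of these differences among settings was not tested. The members with fewest counts (Cox4i2, Cox6b2, Cox6c2 and Ndufa11b) have ratio intervals that include 1, so a difference was not detectable at this depth.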
